A study of Rattus with 9 samples.

Results

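The genes B2m, Tap1, Tap2, Tapbp, Psmb8, Psmb9, Psmb10 and Nlrc5 build, load and regulate MHC class I molecules. They were chosen by symbol, and all 8 were found among the 23836 gene symbols of the files and passed the filter on low counts over all cells. The data are droplet-based single-cell RNA counts of rat bile duct. Sham rats gave 3 samples. Rats after liver transplantation (LT) with ischemic injury of the graft gave 1 sample at each of days 1, 3 and 7 (ctrl). A second transplanted arm, in which ligation of the splenic and gastroduodenal arteries was meant to raise arterial flow to the graft, gave 1 sample at each of the same days (treat). The study describes its rats as young Sprague-Dawley rats of both sexes, with LT by the cuff technique after warm ischemia in situ. That description is of the rat LT model in general, and the tying of arteries is taken from the series design alone. Each sample had 1 library in sham and 2 or 3 after LT. The labels do not say whether libraries or samples came from separate rats, so p-values measure only the spread between these samples, which may be technical. A day of an arm is 1 sample, so ctrl and treat are groups of 3 that differ in day.

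Class I molecules show peptides of the cell's own proteins to CD8 T cells on nearly all nucleated cells. The proteasome cuts the proteins, the Tap1 and Tap2 transporter carries peptides into the endoplasmic reticulum, tapasin (Tapbp) bridges that transporter to the waiting heavy chain, and the loaded chain leaves with its light chain, β2-microglobulin (B2m). Psmb8, Psmb9 and Psmb10 are the catalytic subunits of the immunoproteasome, which take the places of Psmb5, Psmb6 and Psmb7 in newly built particles. Nlrc5 is the transactivator that binds class I promoters together with the RFX complex. Interferon-γ, made mainly by T and NK cells, is a textbook inducer of the whole group, and class I on graft cells is a main target of T cells in transplant rejection. In the rat annotation GRCr8, Tap2, Psmb8, Tap1 and Psmb9 lie next to each other in this order, between the class II genes RT1-DOb and RT1-DMb, while the other members lie elsewhere. The genome build of the files was not given in the sources used here, so no coordinates are printed.

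After filtering, 139536 cells remained, from 2292 to 31664 per sample, out of libraries of 14398295 to 109245177 UMIs (unique molecular identifiers, each 1 captured RNA molecule). Libraries of 1 sample shared at most 0.330% of their barcodes. Levels are CPM, the UMIs of a gene scaled by all UMIs of the same cells in the usual counts-per-1e6 way, with no other scaling, whereas the tests and the counts of samples above sham used TMM scaling, which corrects for a few genes that take much of a library. Several libraries stood apart. The limit on hemoglobin removed 2472 of 2907 and 3961 of 4298 barcodes of libraries 2 and 3 of ctrl day 3, so that 6864 of its 7588 cells came from library 1. In ctrl day 7, library 2 held 37 B-like cells against 1981 and 2842 in the others. Sham sample 1 had the fewest cells, with 3.75% fibroblast-like cells against 34.6% and 46.9% in the other sham samples. Cell types were named from marker genes, and a type is written "-like". The classes were biliary epithelial cells (BEC), blood and lymphatic endothelial cells (EC, LEC), vascular smooth muscle cells (VSMC), dendritic cells (DC), NK and T cells together (NK&T), fibroblasts, macrophages, monocytes and B cells. These 10 types had enough cells in all groups for a test.

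Over all cells, the samples of days 3 and 7 of both arms lay above every sham sample for all 8 members, by margins that differed between members, while the day 1 samples lay mostly within or near the sham range. B2m had 4178, 3258 and 2982 CPM in the sham samples, 3637, 6882 and 11134 CPM in ctrl at days 1, 3 and 7, and 2452, 11233 and 11812 CPM in treat at the same days. The day 1 sample lay within the sham range in ctrl and below it in treat, and each later sample was above every sham sample.

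The transporter genes showed the same pattern. Tap1 had 38.3, 27.9 and 27.8 CPM in sham, 30.5, 116 and 159 CPM in ctrl, and 30.3, 271 and 197 CPM in treat. Tap2 had 27.4, 6.17 and 6.65 CPM in sham, 12.8, 39.0 and 32.4 CPM in ctrl, and 11.8, 83.4 and 43.9 CPM in treat, with ctrl day 7 close to the highest sham sample. Sham sample 1 stood apart for Tap2, and this held within types: EC-like cells had 65.9 CPM there and 11.6 and 15.2 CPM in the other sham samples, and NK&T-like cells 54.2 CPM against 14.2 and 14.3. The tapasin gene Tapbp had 112, 62.1 and 53.1 CPM in sham, 73.1, 120 and 162 CPM in ctrl, and 53.5, 153 and 155 CPM in treat. Its lowest later sample lay close to the highest sham sample.

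The 3 immunoproteasome genes showed the same step between day 1 and day 3. Psmb8 had 194, 168 and 137 CPM in sham, 227, 618 and 781 CPM in ctrl, and 228, 783 and 721 CPM in treat, so that both day 1 samples also lay above the sham range. Psmb9 had 182, 142 and 125 CPM in sham, 182, 609 and 776 CPM in ctrl, and 164, 1119 and 865 CPM in treat. Psmb10 had 176, 148 and 130 CPM in sham, 175, 353 and 361 CPM in ctrl, and 218, 508 and 397 CPM in treat. Treat day 3 was the highest sample for all 3, narrowly so for Psmb8, and also for Tap1 and Tap2.

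Nlrc5 rested on few UMIs. It had 3, 15 and 16 UMIs in the sham samples, 26, 55 and 540 UMIs in ctrl, and 60, 165 and 476 UMIs in treat. As levels, these were 0.32, 0.28 and 0.24 CPM in sham, 0.26, 1.08 and 3.64 CPM in ctrl, and 0.31, 1.81 and 3.53 CPM in treat. Its day 7 samples were the highest of each arm, and its day 1 samples lay at the sham level.

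**Figure D1:**
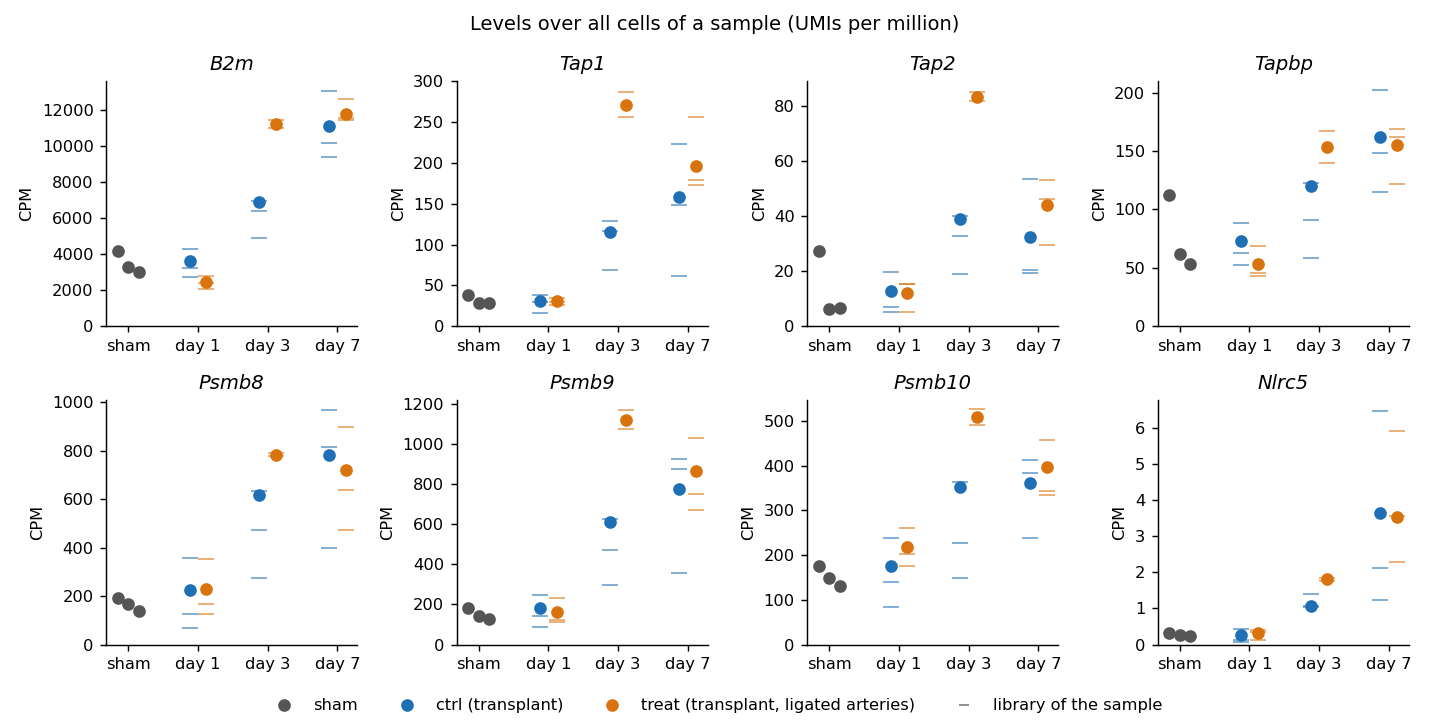
Levels of the 8 genes over all cells, in CPM on linear axes that start at 0, by sham and day. Large points are samples (gray sham, blue ctrl, orange treat) and small bars are the libraries of the transplanted samples. At days 3 and 7 every sample lies above every sham sample for all 8 genes, and the libraries of a day spread widely.

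The design's question was whether LT, and the added tying of arteries, changed these genes. Taking the 3 days of an arm as 1 group, 1 of 8 members was called in ctrl against sham, where "called" means a Benjamini-Hochberg adjusted p under 0.05 in edgeR's quasi-likelihood test over all genes. This was Psmb8, higher in ctrl with a log2 fold change of 2.04 (SE 0.53, adjusted p = 0.049). The call was lost without library 2 of ctrl day 7 (adjusted p = 0.051), and held on leaving out 1 sample only for ctrl day 1 or treat day 1. Of all 16028 genes tested, 8.92% were called. All 8 members had a positive log2 fold change, with a median of 1.77 against -0.029 over all genes, and 7 of 8 had an unadjusted p under 0.05, beside 4804 of all 16028 genes. In treat against sham, edgeR called 0 of 8 members and 0% of all genes. The members' median was 2.14, the smallest adjusted p was 0.075 for Psmb10, and 7 of 8 had an unadjusted p under 0.05, beside 23.7%. DESeq2, run as another tool, called 5 members in ctrl and 7 in treat, while over all genes it called 3629 and 2360. With library size in place of TMM scaling, the median of all genes moved to -0.37 in ctrl against sham and -0.32 in treat against sham, and all 8 members kept a positive sign in both.

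In treat against ctrl, edgeR called 0 of 8 members and 0% of all genes. DESeq2 also called 0 members, and no member had an unadjusted p under 0.05, beside 3.46% of all genes. The log2 fold changes ran from -0.03 for Tapbp to 0.70 for Tap2 (SE 0.75). The standard errors, from 0.35 for Psmb10 to 0.94 for Nlrc5, carry the spread between days, and a fit with the day as a block also called 0 members. Side by side, treat day 3 had 271 CPM of Tap1 against 116 CPM in ctrl day 3, and treat day 7 had 197 CPM against 159 CPM in ctrl day 7. Each of these is 1 sample against 1, and the libraries of ctrl day 7 alone spanned 61.2 to 224 CPM of Tap1.

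After these values were seen, ctrl and treat samples of 1 day were joined as 2 samples a day and compared with sham. At day 1, 1 of 8 members was called (Psmb8, log2 fold change 0.82, SE 0.18, adjusted p = 0.047 in edgeR), beside 5.96% of all genes, and 0 without library 2 of ctrl day 7. At day 3, 8 of 8 were called as higher, beside 6.99%, with 4 left without sham sample 2 or 3 and 5 without ctrl day 7 or treat day 3, where all genes fell from 1153 calls to between 91 and 427. Their log2 fold changes ran from 1.20 for Tapbp to 2.96 for Tap1 (SE 0.33, adjusted p = 0.0077). At day 7, 7 of 8 were called as higher, beside 10.6%, with Tap2 outside (1.90, SE 0.59, adjusted p = 0.079) and Nlrc5 at the largest value (3.97, SE 0.35, adjusted p = 0.0026). Without ctrl day 7, 4 members were called there, beside 135 genes in place of 1755. Between the mean of days 3 and 7 and day 1, 6 of 8 members were called as higher, beside 3.93%, all but Tap2 and Tapbp. Without ctrl day 1, ctrl day 7, sham sample 2 or treat day 7, 0 members were called, but over all genes too the 649 calls fell to at most 12. Without treat day 1 there were 2 members and 276 genes, and without sham sample 3 there were 3 members and 83 genes. Between day 7 and day 3, edgeR called 0 of 8 members and 0% of all genes, with 1 member (Nlrc5, 1.27, SE 0.35) at an unadjusted p under 0.05, beside 4.69% of all genes, and 0 by DESeq2, beside 0.83%. With library size scaling, the median of all genes moved to -0.42 at day 1, -0.39 at day 3 and -0.33 at day 7. The day 1 values of B2m, Tap1, Tap2 and Tapbp then turned negative, and no value of days 3 and 7 did.

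On the TMM scale, all 4 samples of days 3 and 7 lay above all 3 sham samples for 8 of 8 members, against 18% of all genes, and both day 1 samples did for 5 of 8, against 21.8%. Over all cells, such a value mixes a change within cells with a change in which cells were caught. NK&T-like cells, which had the highest B2m among the tested types in sham, made up 2.87% to 5.28% of sham cells and 24.5% and 25.4% of cells at day 7 in ctrl and treat. Levels were therefore taken within each type.

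The types differed in their resting levels. In sham, B2m ran from 8774 to 10089 CPM in NK&T-like cells, 7154 to 7234 in EC-like cells and 6124 to 7291 in macrophage-like cells. The last 2 overlapped. DC-like and B-like cells lay at 4815 to 4975 and 4858 to 4981 CPM and overlapped, above LEC-like cells at 3356 to 3902 CPM. Monocyte-like cells, with 3377 and 4732 CPM in 2 samples, overlapped with LEC-like cells. BEC-like cells had 2063 to 3298 CPM, fibroblast-like cells 2385 to 2661 CPM and VSMC-like cells 1200 to 2434 CPM, and these 3 overlapped. The order was not the same for Psmb8, which had 452 to 561 CPM in NK&T-like and 508 to 550.0 CPM in DC-like cells, 253 to 314 CPM in EC-like cells and 11.3 to 38.6 CPM in VSMC-like cells. The smallest type lists, acinar, goblet, mast and plasma cells, had under 20 cells in most samples and were not tested.

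Genes whose level followed the members over 15 types were, by Pearson r with the members' mean z-score, 5 class I heavy chains and 5 other genes. RT1-CE10 had r = 0.98, RT1-A1 and RT1-CE4 0.96, and RT1-A2 and RT1-S3 0.92. The proteasome activator subunit Psme2 followed with 0.91, then Bloc1s2, Rab8a, Birc3 and Tmbim4 with 0.89 to 0.90. Among the members, Psmb8 and Psmb9 lay at 0.96 with the mean they enter, and Psmb10 at 0.38. The levels were means over all samples of a type, so types and days are mixed. Acinar cells had a level in 1 sham sample only, plasma cells at day 7 only and mast cells only after LT. Acinar cells also lay lowest, at a mean z-score of -2.10. Types of 1 library share depth and free RNA, so these values are descriptions. The rat heavy chain genes are near-identical copies that differ between strains, and reads may be split among them.

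**Figure D2:**
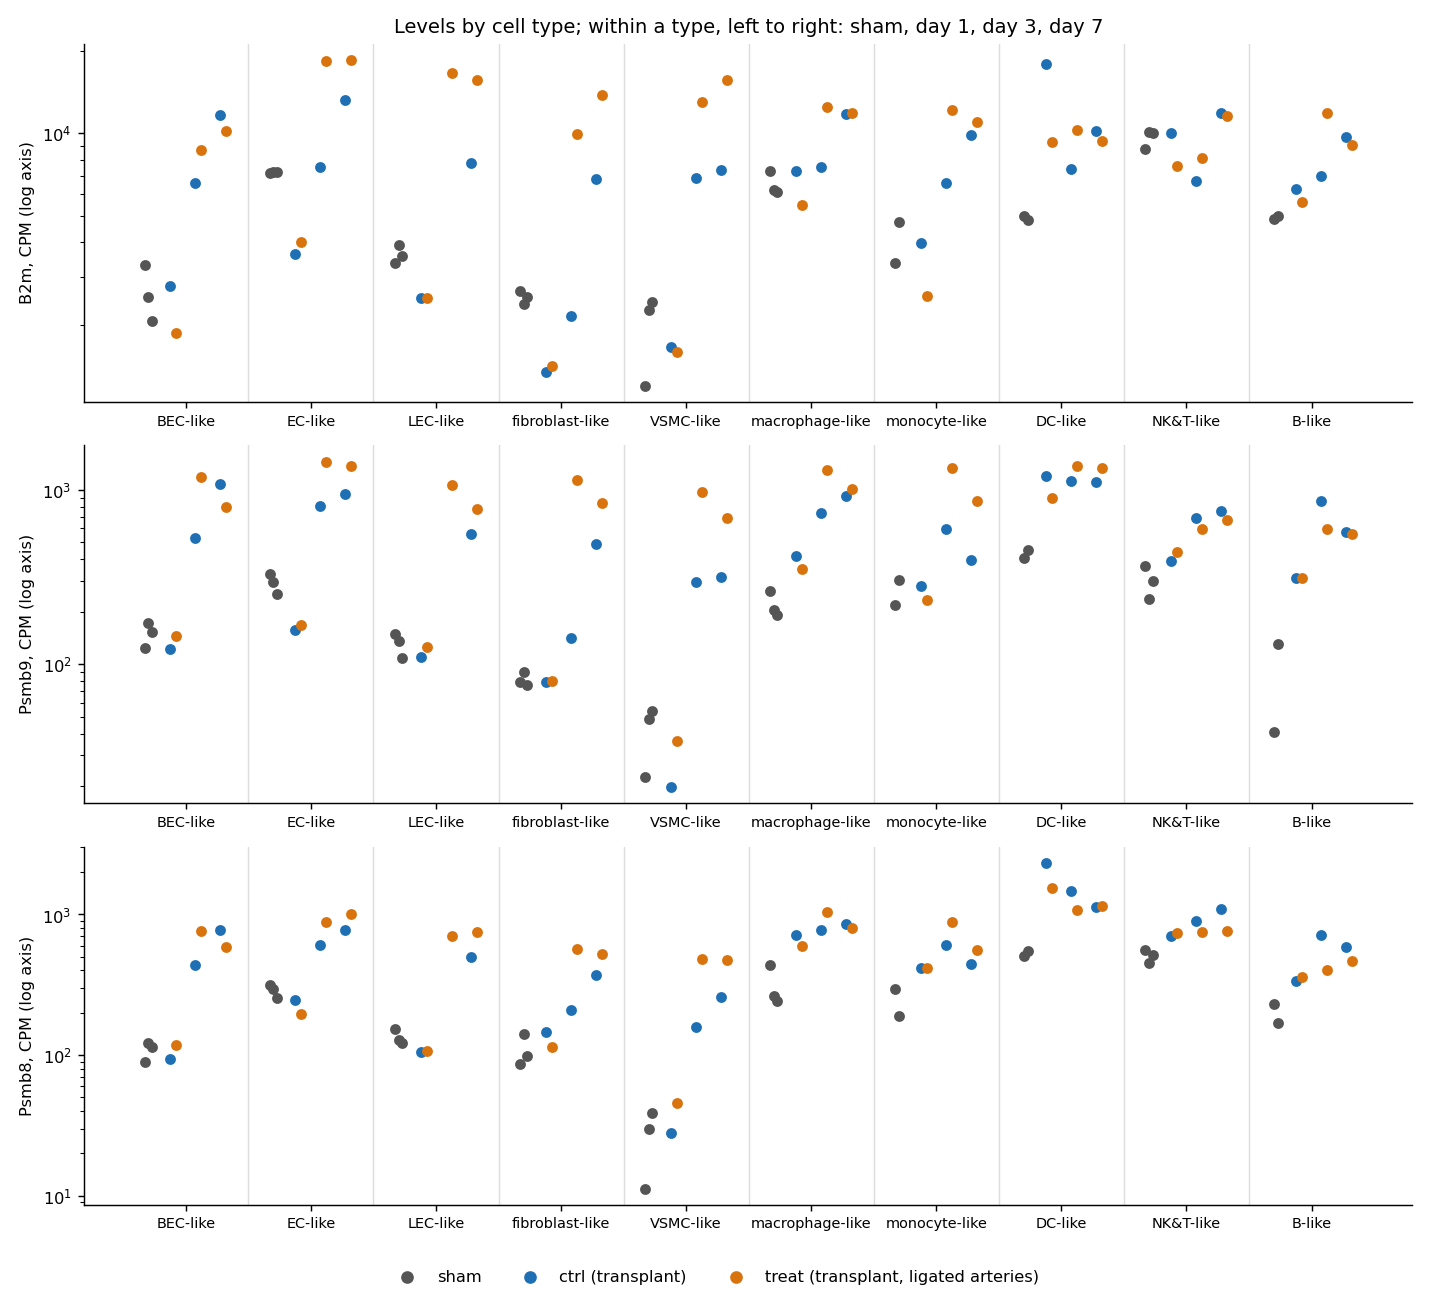
CPM of B2m, Psmb9 and Psmb8 on log axes in 10 cell types, each point 1 sample with at least 20 cells of the type. Within a type, sham, day 1, day 3 and day 7 run from left to right. The later samples lie above sham in most types, DC-like cells are already high at day 1, and B2m in NK&T-like cells overlaps with sham.

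BEC-like cells, the epithelium of the duct, showed the step of the whole tissue. B2m had 3298, 2534 and 2063 CPM in sham, 2777, 6568 and 11664 CPM in ctrl, and 1862, 8713 and 10156 CPM in treat. Psmb9 had 124, 171 and 153 CPM in sham, 122, 531 and 1084 CPM in ctrl, and 145, 1190 and 792 CPM in treat. Psmb8 had 88.7, 123 and 115 CPM in sham, 93.5, 435 and 771 CPM in ctrl, and 119, 759 and 592 CPM in treat. In each, the day 1 samples lay within, or close to, the sham range and each later sample was above every sham sample, at ctrl day 3 by the smallest margin. The transporter gene Tap1 had 37.3, 33.9 and 30.8 CPM in sham, 24.6, 135 and 284 CPM in ctrl, and 29.6, 306 and 240 CPM in treat, again without overlap between later samples and sham. Tapbp had 141, 89.2 and 78.1 CPM in sham, 69.5, 164 and 207 CPM in ctrl, and 72.2, 181 and 162 CPM in treat.

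For 8 of 8 members on the TMM scale, the 4 later BEC-like samples lay above all sham samples, against 9.56% of genes, and for 0 of 8 did both day 1 samples, against 25.7%. In the fit with the 3 days as a group, edgeR called 0 of 8 members in ctrl against sham, beside 4.24% of 13304 genes, and 0 of 8 in treat against sham, beside 0.293%. In each, 6 members had an unadjusted p under 0.05, beside 23.0% and 14.2% of genes, and DESeq2 called 2, beside 11.4% and 3.34%. In treat against ctrl it called 0 of 8 and 0% of genes, with 0 members at an unadjusted p under 0.05 (7.97% of genes) and 0 by DESeq2 (0.744%). By day, 0 of 8 members were called at day 1, beside 12.7% (1 at an unadjusted p under 0.05, beside 32.6%, and 0 by DESeq2, beside 20.3%). At day 3, 5 of 8 were called as higher, beside 1.75%, namely Tap2 (log2 fold change 3.26, SE 0.47), Tap1 (2.94, SE 0.32), Psmb9 (2.75, SE 0.36), Psmb8 (2.67, SE 0.30) and B2m (1.78, SE 0.29). At day 7, 6 of 8 were called as higher, beside 2.28%, namely these 5 and Nlrc5 (3.41, SE 0.42, adjusted p = 0.0082). Between days 3 and 7 and day 1, 7 of 8 were called as higher, beside 6.38%, all but Psmb10. Without sham sample 2 or 3, 2 members were called at day 3 and 2 at day 7, and 2 at day 7 without ctrl day 7, while all genes fell from 241 calls to 43 and 44 at day 3 and from 313 to between 43 and 54 at day 7. For the later days against day 1, 0 members were left without ctrl day 1 or treat day 1, 2 without ctrl day 7 and 4 without treat day 7, where all genes fell from 877 calls to between 16 and 112. Psmb10 had log2 fold changes of 1.70 at day 3 and 1.54 at day 7, with adjusted p = 0.053 and 0.065 in edgeR.

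Nlrc5 in BEC-like cells rested on 1, 5 and 7 UMIs in sham, 5, 6 and 74 UMIs in ctrl, and 5, 34 and 131 UMIs in treat. As levels, these were 0.31, 0.39 and 0.36 CPM in sham, 0.72 CPM in ctrl day 3 and 1.36 CPM in treat day 3, and most UMIs came from day 7. Without the ctrl day 7 sample, the log2 fold change of ctrl against sham turned to -0.17.

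The BEC-like class was made of 4 clusters, and different clusters held most of it in different groups. Cluster 6, led by Gkn3, Aqp5 and Ttr, held 35.6%, 65.3% and 73.9% of BEC-like cells in the sham samples, with 52.6% of the first in cluster 18. Clusters 16 (Reg3b, Reg3g) and 18 (Wfdc21, Lypd8, Duoxa2) together held most of them at day 1, with 1751 and 1500 of 3792 cells in ctrl and 1039 and 675 of 2482 cells in treat. Cluster 3, led by Clca5, Sectm1b, Ubd and Ido1, held 66.2% and 66.3% at day 7 in ctrl and treat and 43.3% at treat day 3. The members and the other genes of the pathway lists were left out of the genes used for clustering. Libraries were not aligned to each other before clustering. A shift in cell state and a difference between libraries can therefore not be told apart in these shares, here or in other types.

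Within single clusters, the samples of days 3 and 7 lay above the 3 sham samples in all 4 clusters for B2m, Tap1, Tap2, Psmb8 and Psmb9, but not for Tapbp, Psmb10 and Nlrc5. The share of all genes that did so within a cluster is not given here, and in the whole class it was 9.56%. Some margins were small: Tap2 in cluster 18 had 26.0 CPM in sham sample 1 and 27.4 CPM in ctrl day 7. Some separations also rested on few sham UMIs. Sham sample 1 held 1, 0, 1 and 4 UMIs of Tap1, Tap2, Psmb8 and Psmb9 in cluster 16. It held 1 and 3 UMIs of Tap1 and Tap2 in cluster 3. Tapbp in cluster 18 had 220.3, 172 and 134 CPM in sham, 115, 145 and 161 CPM in ctrl, and 133, 235 and 167 CPM in treat, with overlap. In cluster 16, sham sample 1 had 167 CPM of Tapbp and 234 CPM of Psmb10, above 90.6 and 215 CPM in ctrl day 3, but rested on 4 cells with 5 and 7 UMIs of these genes. The other sham samples had 189 and 212 CPM of Psmb10 there, and in clusters 3, 6 and 18 the later samples of Psmb10 lay above sham. In cluster 6, Psmb8 had 78.3, 121 and 117 CPM in sham, 109, 416 and 812 CPM in ctrl, and 129, 731 and 605 CPM in treat. In cluster 18, Psmb8 had 104, 134 and 104 CPM in sham, 141, 279 and 351 CPM in ctrl, and 200.2, 465 and 428 CPM in treat, a smaller span. B2m in cluster 18 was already 4185 to 5822 CPM in sham, and 7220.3 to 11487 CPM in the later samples. Nlrc5 at day 7 lay mostly in cluster 3, with 65 of 74 UMIs in ctrl and 104 of 131 UMIs in treat. In cluster 6, Nlrc5 had 0, 4 and 4 UMIs in sham and 8 and 18 UMIs at day 7.

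**Figure D3:**
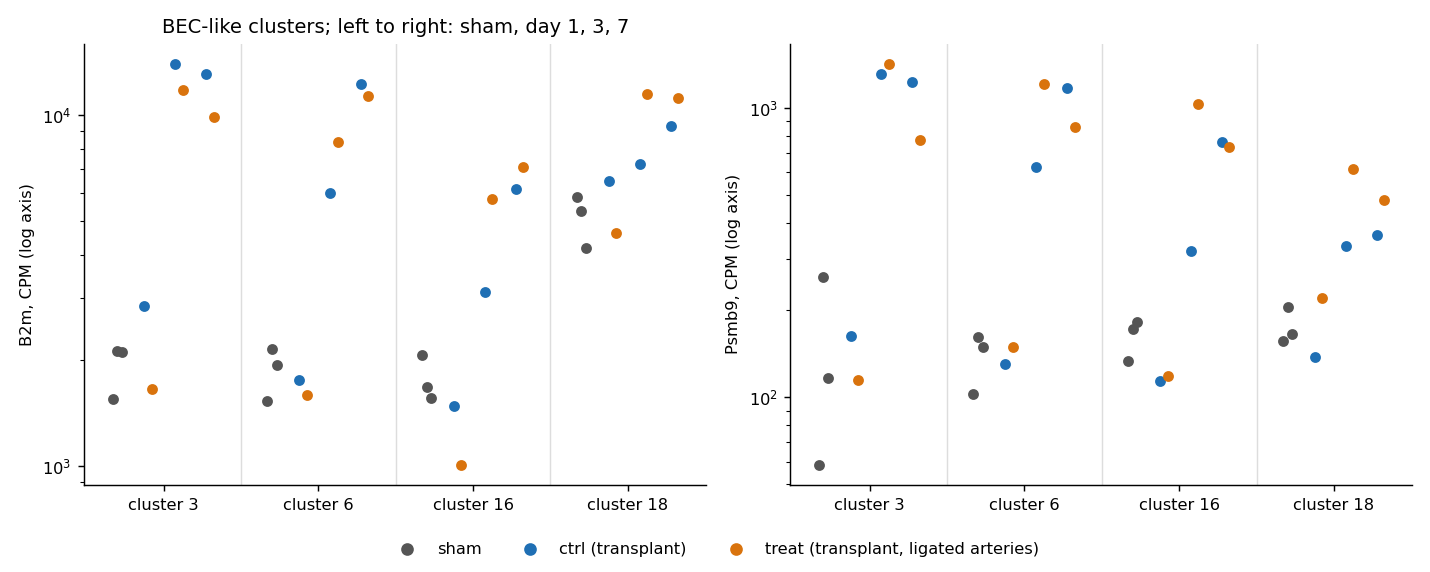
B2m and Psmb9 in the 4 BEC-like clusters, in CPM on log axes, each point 1 sample. In each cluster the samples of days 3 and 7 lie above the 3 sham samples, with cluster 18 starting from the highest B2m level in sham. Sham sample 1 of cluster 16 rests on 4 cells.

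A share of the UMIs of any droplet comes from RNA free in the suspension. It was estimated at 0.668% to 8.33% of the UMIs of BEC-like cells over the 20 libraries. The highest was library 2 of ctrl day 7, where free RNA could account for 27.1% of the B2m UMIs. That library had 3397 CPM of B2m and 199 CPM of Psmb9 in BEC-like cells, against 12318 and 12208 CPM of B2m and 1264 and 1008 CPM of Psmb9 in the other libraries of the day. With free RNA subtracted, the log2 fold changes in BEC-like cells at day 3 were 1.78 for B2m and 2.74 for Psmb9, and at day 7 they were 2.18 and 2.75.

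Across the 10 types, ctrl against sham gave 3 calls among 71 pairs of member and type by edgeR, beside 1.6% of all pairs of gene and type. These were Psmb9 (log2 fold change 3.26, SE 0.56, adjusted p = 0.0071) and Psmb8 (1.83, SE 0.38, adjusted p = 0.025) in B-like cells and Psmb8 in macrophage-like cells (1.47, SE 0.32, adjusted p = 0.039). Treat against sham gave 1, Psmb9 in B-like cells (2.97, SE 0.57), beside 0.261%. All were higher after LT. B-like cells were few in sham, with 39 and 37 cells in the 2 samples used, and without either of these samples no B-like call was left, nor in ctrl without ctrl day 7 or in treat without treat day 3. In these fits, all genes in B-like cells fell from 37 calls in ctrl to between 1 and 5, and from 20 in treat to between 6 and 12. Without ctrl day 3 or treat day 3, 1 of the B-like calls in ctrl was left, beside 38 and 31 genes. The macrophage-like call was lost without any ctrl sample, sham sample 2 or 3, or treat day 7, where all genes in that type had 0 to 104 calls. Treat against ctrl gave 0 of 71, beside 0% of all pairs, with 3 at an unadjusted p under 0.05 (4.14% of all pairs) and 0 by DESeq2 (0.148%). In that comparison 54 of 71 pairs were positive, with a median log2 fold change of 0.40. The median of all genes there ran from -0.022 in fibroblast-like to 0.047 in BEC-like cells. Positive values were found for 71 of 71 pairs in ctrl and 70 of 71 in treat against sham. The median log2 fold change of all genes was itself positive in B-like cells (0.28 in ctrl, 0.32 in treat) and monocyte-like cells (0.33 and 0.35). In the other types it ran from -0.050 to 0.039 in ctrl and from -0.075 to 0.036 in treat. The share of positive values over all pairs is not given here.

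By day, 9 of 72 pairs were called at day 1 beside 7.61%, 33 at day 3 beside 3.75%, and 34 at day 7 beside 2.76%, all higher than sham in edgeR. Between days 3 and 7 and day 1, 31 were called as higher, beside 6.06%. Between day 7 and day 3, edgeR called 0 of 72 pairs, beside 0.145%, with 8 at an unadjusted p under 0.05 (5.8% of all pairs) and 0 by DESeq2 (0.428%).

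**Figure D4:**
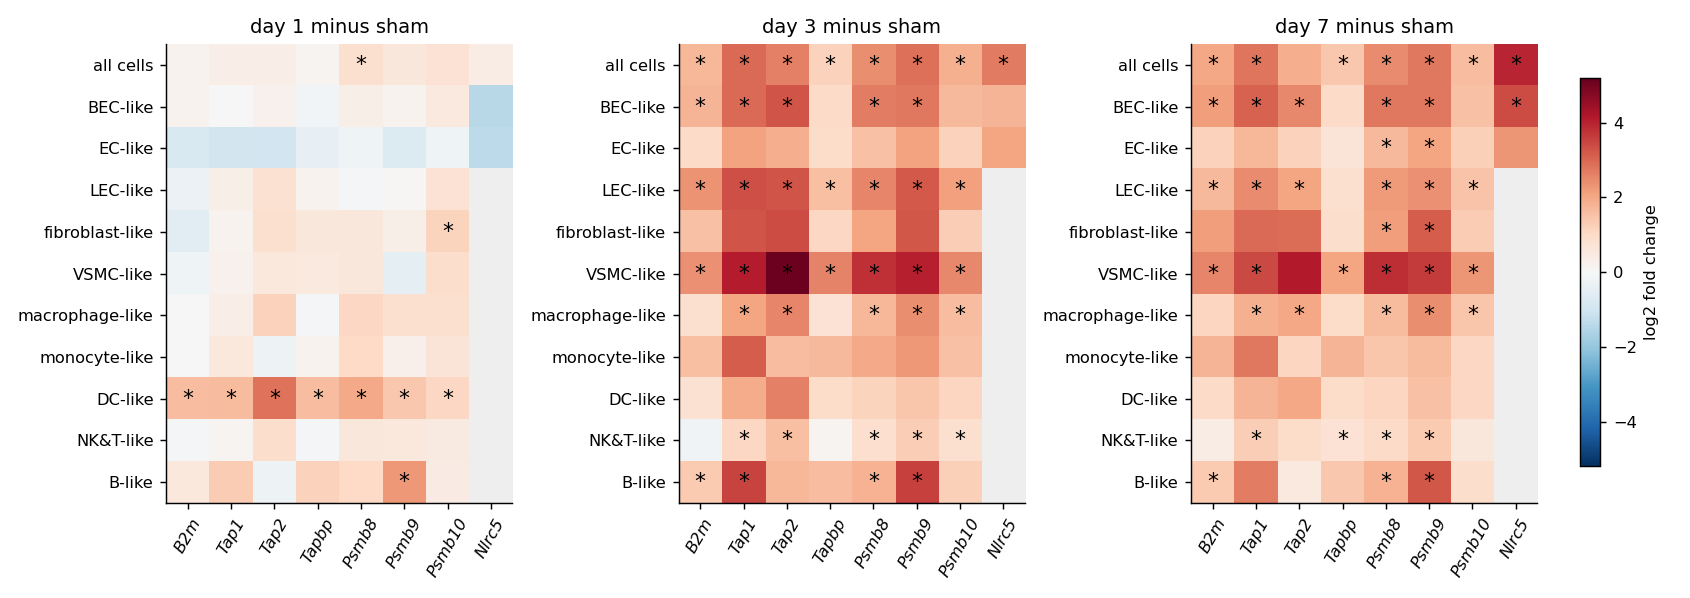
Log2 fold change of each member (columns) in all cells and 10 types (rows) at days 1, 3 and 7 against sham, ctrl and treat samples joined. An asterisk marks an adjusted p under 0.05 in edgeR, and gray marks a pair that was not tested or had no UMI in sham. The LEC-like row of day 3 is 1 sample. Day 1 has calls mainly in DC-like cells, with 7 of 7 members, and days 3 and 7 have them in most types.

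VSMC-like cells, the contractile cells of vessel walls, had the lowest sham levels of Psmb8 and the largest median log2 fold change over members at day 3 (3.78). Psmb9 had 22.5, 48.4 and 54.1 CPM in sham, 19.7, 295 and 315 CPM in ctrl, and 36.4, 966 and 688 CPM in treat. Tap1 there had 4.50, 13.5 and 19.3 CPM in sham, 7.22, 66.5 and 68.1 CPM in ctrl, and 20.3, 281 and 188 CPM in treat. Both treat samples lay above both ctrl samples at days 3 and 7. At day 3, 7 of 7 members were called as higher in VSMC-like cells, beside 1.18%, up to 5.09 for Tap2 (SE 1.07), and 0 without sham sample 2 or treat day 3, where all genes fell from 105 calls to 0 and 3. The Tap2 value rested on very few sham UMIs. It had 2.25, 2.69 and 0 CPM in the sham samples, whose VSMC-like cells held 444230, 371713 and 258882 UMIs of all genes. Without sham sample 1 or 3, there were 3 members and 57 genes. The ctrl day 3 sample held 33 such cells.

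LEC-like cells, the lining of lymph vessels, had 7 of 7 members called as higher at day 3, beside 1.42%, with treat day 3 as the only sample of that day since ctrl day 3 held 19 cells. The fit assumes that this lone sample varies like those of the other groups, so these 7 of the 33 calls of day 3 have no replicate of their own. B2m had 3356, 3902 and 3560 CPM in sham, 2499 and 7820.1 CPM in ctrl at days 1 and 7, and 2499, 16511 and 15674 CPM in treat. In EC-like cells, B2m had 7154, 7234 and 7226 CPM in sham, 3619, 7513 and 13202 CPM in ctrl, and 4029.6, 18379 and 18447 CPM in treat. Both day 1 samples were below, and ctrl day 3 close to, the sham samples. At day 1, 0 of 8 members had a positive log2 fold change in EC-like cells (median -0.76, from -1.35 to -0.23). There edgeR called 0, beside 136 of 10729 genes, with 0 at an unadjusted p under 0.05 (22.9%) and 0 by DESeq2 (7.46%). For later days against day 1, edgeR called 6 of 8 as higher in EC-like cells, beside 243 of 10729 genes. At day 3 edgeR called 0 of 8 members in EC-like cells, beside 0.0186%, with 8 at an unadjusted p under 0.05 (12.2% of genes) and 4 by DESeq2 (1.82%).

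In fibroblast-like cells, the ctrl and treat samples of day 3, 1 of each, lay far apart, which was not tested. B2m had 2661, 2385 and 2527 CPM in sham, 1344, 2155 and 6830.0 CPM in ctrl, and 1416, 9974 and 13826 CPM in treat. Psmb9 had 78.9, 90.4 and 75.6 CPM in sham, 79.2, 142 and 488 CPM in ctrl, and 80.4, 1144 and 837 CPM in treat. The same cluster, 14 (Cthrc1, Thbs2, Postn), held most of the class in both day 3 samples, with 282 of 413 cells in ctrl and 721 of 949 cells in treat. Within it, B2m was 2056 CPM in ctrl and 10544 CPM in treat. Clusters 7 and 26 held most of the class in sham samples 2 and 3, and cluster 11 at day 1. At day 3, edgeR called 0 of 7 members, beside 0.717%, with 7 at an unadjusted p under 0.05 (15.5% of genes) and 5 by DESeq2 (3.49%).

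Among immune cells, macrophage-like cells had 5 of 7 members called as higher at day 3, beside 6.54%, but 1 without sham sample 2 or treat day 3 and 0 without sham sample 3, where all genes fell from 698 calls to 81, 84 and 1. Psmb8 there had 439.7, 265 and 244 CPM in sham, 715, 778 and 861 CPM in ctrl, and 595, 1036 and 801 CPM in treat. All 6 transplanted samples lay above the sham samples, day 1 included. Different clusters held the class in different groups. Cluster 27 (Pf4, Mrc1) held 66.4% and 62.2% in sham samples 2 and 3 and at most 2.84% in a sample after LT, cluster 12 held 81.3% in sham sample 1, and cluster 5 held 61.3% and 62.1% at day 3 in ctrl and treat and at most 2.66% in a sham sample. In cluster 20, which was present in all groups, Psmb8 had 347, 314 and 314 CPM in sham, 594, 1070.1 and 1052 CPM in ctrl, and 555, 1128 and 807 CPM in treat, again without overlap. B2m in cluster 5 was 6077, 7748 and 10500.2 CPM in the few sham cells and 7594 CPM in ctrl day 3, with overlap. B-like cells had 4 of 7 called as higher at day 3, beside 0.872%, with 2 left without sham sample 2 and 1 without sham sample 3, where all genes fell from 56 calls to 17 and 8. Monocyte-like cells had 0 of 7 called at day 3, beside 0%, with 6 at an unadjusted p under 0.05 (9.99% of genes) and 2 by DESeq2 (0.624%). Only 20 and 35 monocyte-like cells represented sham. The joined day 3 samples lay in different clusters, with 88.8% of ctrl day 3 in cluster 8 and 97.7% of treat day 3 in cluster 9. Cluster 8 also held 99.0% and 98.0% of the class at day 1 in ctrl and treat. Its name is uncertain, since 3 monocyte and 4 macrophage markers were detected in it. At Leiden resolution 2, the cluster led by Ccl24 and Pf4 was left unnamed, with macrophage as its best class.

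DC-like cells, which present peptides to T cells, were high from day 1 on. Psmb8 had 508 and 550.0 CPM in sham samples 2 and 3, 2326, 1481 and 1133 CPM in ctrl, and 1539.8, 1075 and 1149 CPM in treat. B2m had 4975 and 4815 CPM in sham, 17942, 7414 and 10172 CPM in ctrl, and 9254, 10248 and 9399.7 CPM in treat. At day 1, 7 of 7 members were called as higher, beside 11%, with Tap2 at 2.84 (SE 0.57, adjusted p = 0.016 in edgeR) and B2m at 1.61 (SE 0.40, adjusted p = 0.034). Without either of the 2 sham samples 0 were called, and without ctrl day 1 there were 2, while all genes fell from 898 calls to 20, 10 and 458. At day 3, edgeR called 0 of 7, beside 0.33%, with 5 at an unadjusted p under 0.05 (12.8% of genes) and 5 by DESeq2 (1.74%).

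The make-up of the DC-like class moved with this result. Cluster 32, led by Tbc1d4, Il7r, S100a5 and Cytip and with the interferon-induced gene Isg15 among its leading genes, held 275 of 304 DC-like cells in ctrl day 1 and 398 of 670 in treat day 1, but 2 of 224 and 3 of 238 in the sham samples. Cluster 21, led by Ccl17, Cst3 and Wdfy4, held nearly all others. In cluster 21 alone, B2m was 4925 and 4714 CPM in sham and 7891.5 and 4439.9 CPM at day 1 in ctrl and treat, so that the treat sample was below sham. Psmb8 in cluster 21 was 506 and 539.9 CPM in sham and 1392 and 979 CPM at day 1, so both samples were above sham, and Psmb9 was 407 and 450.4 CPM against 916 and 686. In cluster 32, B2m had 14014 and 13641 CPM in its few sham cells and 19340.4 and 14584.5 CPM at day 1.

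In NK&T-like cells, the median log2 fold change over members was 0.87 at day 3, the smallest of the 10 types there, while in ctrl against sham it was 0.75 and EC-like cells had 0.63. B2m had 8774, 10089.5 and 10049 CPM in sham, 10008, 6683 and 11810.2 CPM in ctrl, and 7614, 8133 and 11597 CPM in treat, with all groups overlapping. Psmb9 had 363, 236 and 301 CPM in sham, 390.1, 691 and 751 CPM in ctrl, and 438, 593 and 668 CPM in treat, and its later samples did not overlap with sham. At day 3, 5 of 7 members were called as higher, all but B2m and Tapbp, beside 23.5% of genes in this type, and 3 without sham sample 2, sham sample 3 or treat day 3, where all genes fell from 2402 calls to between 1283 and 1566. Clusters 1 and 13 held most NK&T-like cells in sham and after LT, and clusters 19 and 24 held at most 5 and 10 cells in a sham sample and 1581 and 615 cells in treat day 7.

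Whether the effect in BEC-like cells differed from that in another type was tested on the difference within each sample, with limma. Over all pairs of gene and other type, limma called 3.26% in ctrl against sham, 2.77% at day 3 and 2.67% at day 7. In treat against sham it called no member, beside 2.77% of all pairs. The share of member pairs called is not given here, so members are not shown to be called more often than other genes. The shares for NK&T-like and EC-like cells below belong to types picked for having a call. At day 3, the effect in BEC-like cells was larger than in NK&T-like cells for B2m by 1.97 on the log2 scale (SE 0.26, adjusted p = 0.023), for Tap1 by 1.76 (SE 0.26, adjusted p = 0.032) and for Tap2 by 1.57 (SE 0.31, adjusted p = 0.0495), beside 3.04% of genes called. At day 7, this was called for B2m (1.78, adjusted p = 0.041) and Tap1 (1.72, adjusted p = 0.043), beside 0.983%. In ctrl against sham, the effect on B2m was larger in BEC-like than in EC-like cells by 1.40 (SE 0.21, adjusted p = 0.027), beside 1.24%. The B2m call against EC-like cells was lost without sham sample 2 or 3, ctrl day 1, ctrl day 3 or treat day 3 (adjusted p = 0.056 to 0.103), while all genes fell from 124 calls to between 9 and 60. Leaving out 1 transplanted sample removed the calls of days 3 and 7, save B2m at day 3 without treat day 1, while all genes fell from 303 to between 11 and 80 at day 3 and from 98 to between 0 and 38 at day 7. Without sham sample 2 or 3, 1 and 2 were left at day 3, beside 132 and 204 genes, and 0 at day 7, beside 90 and 102 genes. At day 1, the effects in BEC-like cells were smaller than in DC-like cells by 0.76 for Psmb10 to 1.95 for Tap2, but limma called 0 of 7 members, beside 7.84% of genes. The smallest adjusted p by limma was 0.062 for B2m. For 6 of 7 members the unadjusted p was under 0.05, but the share of all genes at that threshold is not given here. No difference is given for Nlrc5, which had 0 of 2036513 UMIs in the sham NK&T-like cells, where 3 UMIs would be 1.47 CPM. After LT it had 0.75, 1.61 and 3.12 CPM there in ctrl and 2.25, 2.32 and 3.42 CPM in treat.

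The RNA of proteasome subunits was followed as the UMI ratio of each inducible subunit to the one it replaces. This ratio is free of scaling between samples. The exchange of subunits in the particles themselves was not measured. Over all cells, Psmb8 over Psmb5 was 0.61, 0.45 and 0.39 in sham, 0.54, 1.73 and 2.28 in ctrl, and 0.47, 2.16 and 2.12 in treat. Psmb9 over Psmb6 was 0.96, 0.77 and 0.73 in sham, 0.69, 3.18 and 4.38 in ctrl, and 0.58, 5.76 and 4.90 in treat. Psmb10 over Psmb7 was 2.38, 1.68 and 1.61 in sham, 1.46, 3.56 and 3.85 in ctrl, and 1.66, 5.46 and 3.83 in treat. The ratios at days 3 and 7 were thus above all sham ratios, and those at day 1 were not.

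In BEC-like cells, the ratios of days 3 and 7 were again above all sham ratios. Psmb8 over Psmb5 was 0.28, 0.34 and 0.31 in sham, 0.22, 1.20 and 2.23 in ctrl, and 0.23, 2.12 and 1.78 in treat. Psmb9 over Psmb6 was 0.73, 0.84 and 0.77 in sham, 0.46, 2.50 and 5.53 in ctrl, and 0.50, 5.42 and 4.04 in treat, so that both day 1 samples lay below sham. Psmb10 over Psmb7 was 1.54, 2.06 and 1.98 in sham, 1.25, 2.76 and 4.50 in ctrl, and 1.72, 6.58 and 3.80 in treat. In DC-like cells, Psmb8 over Psmb5 was 1.51 and 1.78 in sham, 6.77, 3.53 and 3.11 in ctrl, and 3.85, 2.66 and 3.01 in treat, all above sham. Psmb10 over Psmb7 went the other way there at day 1, with 2.83 and 2.56 in sham, 0.97, 3.36 and 4.44 in ctrl, and 1.42, 5.25 and 3.91 in treat, so that day 1 was below and the later days above sham. For Psmb8 over Psmb5, NK&T-like cells had 2.18, 1.51 and 1.78 in sham and 1.52 to 2.82 after LT, with overlap.

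With the 3 days as a group, the 2-sided exact permutation test over samples gave p = 0.2 for Psmb8 over Psmb5 in all cells in both arms against sham (2.74-fold in ctrl and 2.73-fold in treat) and p = 0.3 to 0.5 for the other ratios against sham, whether in all cells or in the BEC-like class. Between treat and ctrl, p was 0.6 to 1. With 3 samples against 3, no p below 0.1 can be reached. The constitutive subunits themselves moved less, with log2 fold changes in ctrl against sham over all cells of 0.42 for Psmb5, 0.55 for Psmb6 and 0.69 for Psmb7 (SE 0.23, 0.25 and 0.22).

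**Figure D5:**
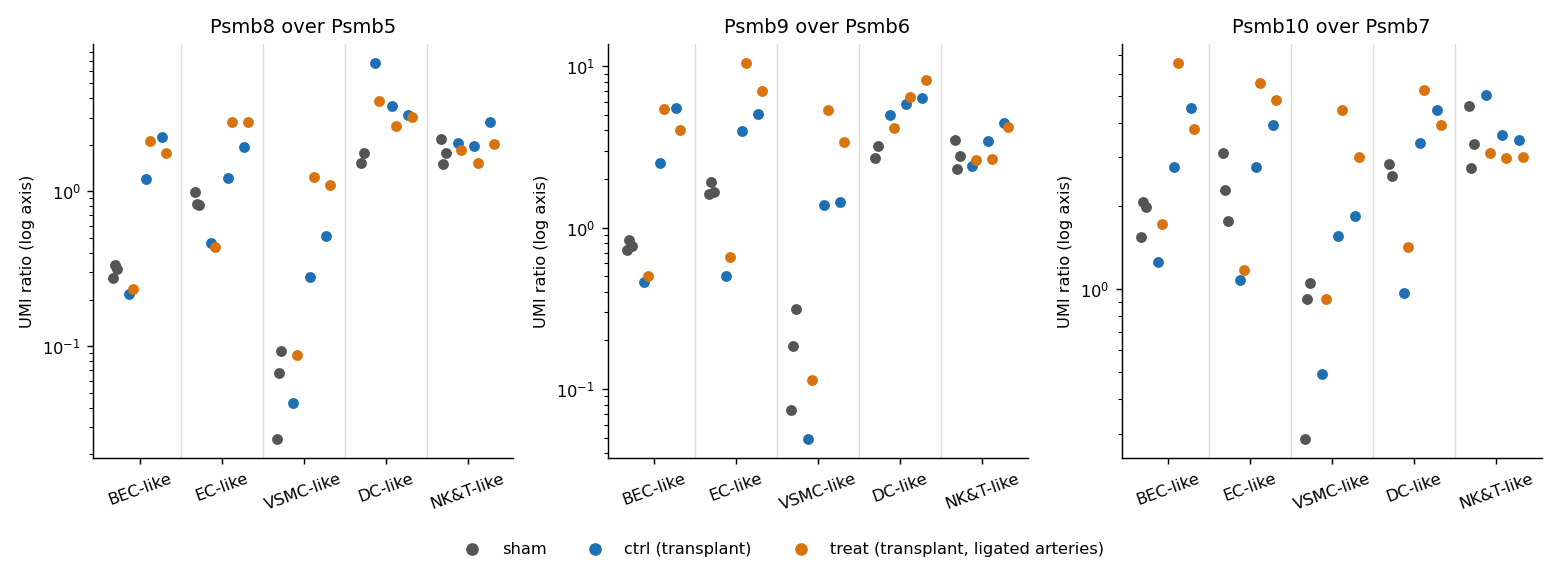
UMI ratios of the inducible to the constitutive catalytic subunits on log axes in 5 cell types, each point 1 sample, with sham, day 1, day 3 and day 7 from left to right within a type. In BEC-, EC- and VSMC-like cells the samples of days 3 and 7 lie above those of day 1, while NK&T-like cells overlap with sham.

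Other genes of the pathway were taken from lists, to be read beside the 8.92% of all genes called in ctrl against sham and the 4804 of 16028 at an unadjusted p under 0.05. Without sham sample 2, sham sample 3 or ctrl day 3, edgeR called 0 of all genes in this comparison, so none of the calls of the lists was left. Of the 11 other subunits of the 20S core, 10 were tested over all cells, and edgeR called 9 as higher in ctrl than sham, led by Psma5 (log2 fold change 0.96, adjusted p = 0.026), Psmb1 (0.76, adjusted p = 0.027), Psmb2 (0.90, adjusted p = 0.031) and Psma6 (0.76, adjusted p = 0.032). Their median was 0.76, below the members' 1.77. Of 21 class I heavy chains measured, 17 were tested and 0 called in ctrl against sham (4 at an unadjusted p under 0.05), with a median of 1.27. RT1-CE10 had 2.15 (SE 0.76) and RT1-A2 1.71 (SE 0.61). Of the loading chaperones and the trimming peptidase Erap1, 0 of 6 were called, 0 at an unadjusted p under 0.05, with a median of 0.18. The proteasome activators and the assembly factor Pomp had 0 of 5 called and 4 at an unadjusted p under 0.05, with Psme2 at 1.38 (SE 0.38, adjusted p = 0.057). The constitutive catalytic subunits had 0 of 3 called and 1 at an unadjusted p under 0.05. In treat against sham, edgeR called 0 genes of any list in the whole tissue, beside 0% of all genes. There, 10 of the 20S core subunits and 5 of the 17 heavy chains had an unadjusted p under 0.05, beside 23.7% of all genes. The BEC-like class had 0 calls in any list in either arm, beside 4.24% of its genes in ctrl and 0.293% in treat. Of 16 heavy chains tested there, 7 had an unadjusted p under 0.05 in ctrl and 11 in treat, beside 23.0% and 14.2% of genes.

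Of the interferon-γ pathway and the partners of Nlrc5, 13 genes were measured and 12 tested, and edgeR called the receptor genes Ifngr1 (log2 fold change 1.07, SE 0.25, adjusted p = 0.040) and Ifngr2 (0.85, SE 0.21, adjusted p = 0.042) as higher in ctrl over all cells, calls that the same samples left out took away. There, 5 of 12 had an unadjusted p under 0.05, and the median log2 fold change was 0.72. In BEC-like cells 0 of 11 were called in ctrl against sham, beside 4.24% of all genes in that type. Of the 11, 3 had an unadjusted p under 0.05, beside 23.0%, and the median was 0.29. In EC-like cells 0 of 11 were called, beside 122 of 10292 genes. Of these 11, 1 had an unadjusted p under 0.05, beside 19.1%, and the median was -0.16. Irf1, an interferon-induced factor, had 169.6, 372 and 269 CPM in sham in BEC-like cells, 88.2, 256 and 419.5 CPM in ctrl, and 68.9, 644 and 546 CPM in treat, lowest at day 1. The cytokine gene Ifng itself was found in NK&T-like cells, at 58.9, 112 and 34.7 CPM in sham, 33.1, 36.6 and 24.6 CPM in ctrl, and 35.2, 26.5 and 40.5 CPM in treat, and at 0.7 CPM or less in BEC-like cells. Within NK&T-like cells, the samples after LT thus lay within or below the sham range. Over all cells it had 2.7, 1.3 and 0.7 CPM in sham and 3.2 to 9.4 CPM at days 3 and 7, beside the larger share of NK&T-like cells. Their part in the members' levels was not tested.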

How the data were processed

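Single-cell suspensions of rat bile duct were run on the 10x Chromium 3′ platform. The deposited matrices hold UMI counts per gene and barcode, made by the authors with Cell Ranger (matrix headers give version 4, the submitters' processing notes 5.0.1, beside Seurat 3.2.0). The genome build is not given in the sources used here. The matrices are unfiltered, so cells were chosen here by the limits that the study gives for its human libraries: over 400 and under 6000 genes, under 25% mitochondrial and under 3% hemoglobin UMIs. The study gives no limits for the rat libraries. The hemoglobin limit removed 7600 barcodes. The 7.5% of barcodes per library with the highest doublet score were removed as doublets (10748 in all). Cells were clustered without 89 genes, the members and pathway lists included (2000 variable genes, 30 components, 20 neighbours, Leiden resolution 0.9), into 43 clusters, of which 34 were named from markers and 9 (13.36% of cells) were not. No correction for differences between libraries was made before clustering. The naming rule was tightened after leading genes and cluster sizes had been seen and ahead of any test between groups: its first form also ranked genes over other cells, and asked for neither 10% detection of a leading gene nor 30% of a list. The members, lists and tests were chosen with earlier results of these data known.

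Counts were summed per sample and cell type where a sample had at least 20 cells, filtered on low counts, scaled by TMM and tested with edgeR's quasi-likelihood test, with Benjamini-Hochberg adjustment at 0.05 over all genes of that fit. All 8 members were named, and of each pathway list up to 4 genes with the smallest unadjusted p in ctrl against sham. A gene of the interferon-γ list is not reported here. Differences between types were tested with limma on each sample's difference in log2 CPM. Ratios were tested by an exact permutation test over samples. Free RNA was estimated from barcodes of at most 100 UMIs. Groups came from sample titles. Replicate numbers of ctrl and treat mark the same day in the titles, so the samples are paired by day, while sham numbers mark no day. Alternatives were DESeq2, library-size scaling, no filter on low counts, the day as a block, libraries as samples, no doublet removal, no hemoglobin limit, free RNA subtracted, a Leiden resolution of 2 and leaving out each sample. Groups by day, ctrl day 3 from its first library and ctrl day 7 without its second library were added after seeing the data. Tests were checked on simulated counts. For a log2 change of 2, the share recovered in ctrl against sham was 75.6% over all cells (15787 genes) and 93.9% in BEC-like cells (13023 genes), and for a log2 change of 1 it was 1.01% (15780 genes) and 23.3% (12992 genes). These simulated counts had the spread found within a day, and all 3 ctrl samples carried the same change. In the data the days of ctrl differed, so these shares are not the power of the reported test. For limma's test of BEC-like against NK&T-like cells at day 3, a difference of 2 was estimated at a median of 1.92, but 0% of the 200 genes that carried it were called (9464 genes). There, the simulated spread was set to a fixed value and not taken from the data. Gene order came from the RefSeq annotation of GRCr8. Software was edgeR 4.0.16, limma 3.58.1 and DESeq2 1.42.0 in R 4.3.3, and SciPy 1.17.1, scikit-learn 1.9.0 and leidenalg 0.10.2 in Python 3.11.15. The barcodes of 1 further library came without a matrix and were not analysed here.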

Additional observations from a re-analysis of the deposited data

Results flagged for a closer look

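By a limma test of the difference itself, the effect of LT on some members differed between BEC-like and 2 other types with all samples in the fit. Over all pairs of gene and other type, limma called 3.26% in ctrl against sham, 2.77% at day 3 and 2.67% at day 7. No member was called in treat against sham, beside 2.77% of all pairs. The share of member pairs called is not given here, so members are not shown to be called more often than other genes. Leaving out 1 sample took the members' calls to 0 in several fits. For BEC-like against EC-like cells, this held without sham sample 2 or 3, ctrl day 1, ctrl day 3 or treat day 3. Against NK&T-like cells, leaving out any 1 transplanted sample removed the calls of days 3 and 7, save B2m at day 3 without treat day 1. Leaving out sham sample 2 or 3 removed those of day 7. The effect on B2m in ctrl against sham was larger in BEC-like than in EC-like cells by 1.40 on the log2 scale. Against NK&T-like cells, the effect in BEC-like cells was larger at day 3 by 1.97 for B2m, 1.76 for Tap1 and 1.57 for Tap2, and at day 7 by 1.78 for B2m and 1.72 for Tap1.

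The mean of days 3 and 7 was compared with day 1 only after the values by day had been seen. With all samples in the fit, edgeR called 6 of 8 members as higher over all cells, beside 3.93% of all genes. In BEC-like cells it called 7 of 8, beside 6.38%. Without ctrl day 1, ctrl day 7, sham sample 2 or treat day 7, 0 of these calls were left over all cells. In BEC-like cells, 0 were left without ctrl day 1 or treat day 1. Over all cells, the later days were higher on the log2 scale by 1.68 for B2m, 2.55 for Tap1, 1.62 for Psmb8, 2.22 for Psmb9, 0.98 for Psmb10 and 2.93 for Nlrc5. In BEC-like cells, they were higher by 1.77 for B2m, 2.96 for Tap1, 2.67 for Tap2, 1.14 for Tapbp, 2.40 for Psmb8, 2.57 for Psmb9 and 4.01 for Nlrc5.

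Barcodes of at most 100 UMIs, which hold mainly RNA free in the suspension and enter the comparisons only as the estimate of free RNA, carried the same step for the members except Nlrc5. The share of all genes that did so in these barcodes is not given here. Over all cells, later samples lay above all sham samples for 18% of genes. The lowest sample of days 3 and 7 had 6446 CPM of B2m there, against 2924 CPM in the highest sham sample. It had 74.7 CPM against 24.3 for Tap1, 15.7 against 5.45 for Tap2 and 73.2 against 44.2 for Tapbp. For the immunoproteasome genes, it had 487 CPM against 154 for Psmb8, 515 against 140.02 for Psmb9 and 310.02 against 179 for Psmb10. For Nlrc5, it had 0.61 CPM against 0.63, so that the groups overlapped.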

How the results depend on the processing

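Each group held 3 samples, and 1 sample stood for each day of an arm. Nlrc5 and the types with few sham cells rested on few UMIs. Over all cells, 1 member called in ctrl against sham became 5 with DESeq2, 6 with libraries as samples (over all genes, 1430 became 3629 and 3975), and 0 with library size scaling or ctrl day 7 without its second library (2350 and 1261 over all genes). In treat against sham, 0 became 7 with DESeq2 and 7 with libraries as samples (over all genes, 0 became 2360 and 2699), which are not known to be separate rats. At day 1, 1 became 2 with DESeq2 and 0 with library size scaling, with no filter on low counts, or with ctrl day 7 without its second library (over all genes, 984 became 3524, 2, 689 and 1088).

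Within types, 3 calls in ctrl against sham became 16 with DESeq2, 20 with no filter and 12 with libraries as samples, while the share called over all pairs of gene and type went from 1.6% to 5.5%, 1.93% and 6.18%. In treat against sham, 1 became 25, 29 and 26 under the same settings, 4 with no doublet removal and 3 with Leiden resolution 2, beside 2.8%, 1.26%, 3.29%, 0.377% and 0.365% in place of 0.261%. In treat against ctrl, 0 became 1 with libraries as samples, beside 0.451%. With no filter, the calls of day 3 rose from 33 to 59, of day 7 from 34 to 61, and of later days against day 1 from 31 to 49, beside 3.9%, 3.83% and 5.96% of all pairs. Day 7 against day 3 had 1 call with library size scaling, beside 0.139%. The difference between types in ctrl against sham gave 2 calls with no doublet removal, beside 3.36% in place of 3.26%. With free RNA subtracted, the calls within types were 3 in ctrl against sham, 1 in treat against sham, 9 at day 1, 33 at day 3, 32 at day 7 and 31 for later days against day 1, beside 1.46%, 0.218%, 7.2%, 3.64%, 2.23% and 5.67%.

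Leaving out each sample in turn gave, over all cells, 0 to 4 calls in ctrl against sham, 0 to 1 at day 1, 4 to 8 at day 3, 4 to 8 at day 7 and 0 to 8 for later days against day 1, where all genes had 0 to 1935, 0 to 1701, 91 to 2252, 135 to 3323 and 0 to 1644 calls. Within types it gave 0 to 6 in ctrl against sham, 0 to 11 in treat against sham, 0 to 12 at day 1, 12 to 50 at day 3, 9 to 44 at day 7, 4 to 46 for later days against day 1 and 0 to 2 for day 7 against day 3, beside 0.0328% to 3.38%, 0.0131% to 1.3%, 1.44% to 10.2%, 1.59% to 6.76%, 0.395% to 4.66%, 1.24% to 8.9% and 0.0247% to 0.51% of all pairs in that order. The difference between types gave 0 to 2 calls in ctrl and in treat against sham, 0 to 4 at day 1, 0 to 6 at day 3 and 0 to 3 at day 7, beside 2.5% to 7.81%, 2.21% to 7.51%, 2.01% to 7.57%, 1.69% to 7.35% and 1.41% to 7.54% of all pairs.

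The log2 ratio of treat to ctrl took either sign. It ran, over all cells, from -0.63 to 0.73 for Psmb8 over Psmb5, -0.55 to 1.32 for Psmb9 over Psmb6 and -0.18 to 0.75 for Psmb10 over Psmb7, and in BEC-like cells from -0.77 to 1.22, -0.75 to 1.33 and -0.0083 to 1.00. With no hemoglobin limit, Psmb8 over Psmb5 turned to 0.035 over all cells. Nlrc5 in BEC-like cells, in ctrl against sham, ran from -0.17 to 2.64. The cause of these changes was not tested. With the day as a replicate block, which pairs ctrl and treat, 0 members were called in treat against ctrl over all cells and 0 of 73 pairs within types, as without it, beside 0.117% of all pairs of gene and type (112, all in LEC-like cells) in place of 0%.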

Other observations

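Cells outside the tested types carried the same members. Cluster 17, unnamed and led by Rgs13, Ltc4s and Nrgn, had 3829 cells. Its B2m was 1173, 1214 and 1446 CPM in sham, 2057, 5069.6 and 10408 CPM in ctrl at days 1, 3 and 7, and 1335, 4752 and 7409 CPM in treat. Its Psmb9 was 105, 85.2 and 98.7 CPM in sham, 138, 720.4 and 494 CPM in ctrl, and 108, 559.8 and 371 CPM in treat. The later samples lay above sham for both. Cluster 22, unnamed and led by Gata3 and Il2ra, had 139, 124 and 137 CPM of Psmb9 in sham, 359, 786 and 622 CPM in ctrl, and 148, 736 and 715 CPM in treat.

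Neutrophil-like cells had enough cells in only 1 sham sample and were not tested. Their B2m was 10936 CPM there, 6311, 13044 and 15171 CPM in ctrl, and 5674, 29715 and 19913 CPM in treat.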
